A study of Mus musculus with 8 samples.

Results

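The genes described here are a list of 10 chosen by name for lipid uptake, lipid storage and adipocyte products, namely Apoe, Scarb1, Lpl, Cd36, Fabp4, Plin2, Pnpla2, Lipe, Adipoq and Cfd. They were read in dermal fibroblasts of mice on a high fat diet and of mice on a normal diet. A probe set naming only that gene was found for 9 of the 10, with 15 such probe sets in all, among 17097 genes measured on the arrays. No probe set was named Cfd (adipsin, the complement factor D of fat cells), which is not analysed here. Each of the 9 genes is given by its brightest probe set, and the others are given where they exist.

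The mice were female, began the high fat diet (HFD) or the control diet, labelled Normal Diet (ND), at 2 months of age, and ate it for 6 months. Strain and genotype are not given in the sources used here. Fibroblasts were taken from skin with the subdermis removed, sorted as positive for Pdgfra and CD34 and negative for blood, endothelial and epithelial surface markers, and RNA from 10000 cells was amplified over 20 cycles before hybridisation. Each diet has 4 arrays, but ND 4 is marked in the labels as failing quality control, for no reason given. ND 1, 2 and 3 were therefore set against HFD 1, 2, 3 and 4. All mice were killed on 1 day. Specimens are numbered within a diet, and whether each is 1 mouse is not given, so the spread between arrays may be partly technical. The study asked what a high fat diet does to gene expression in these cells. In bulk samples such as these, fewer cells that express a gene and less RNA per cell cannot be told apart.

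Lipids reach cells in lipoprotein particles. Lipoprotein lipase (Lpl) frees fatty acids from the particles' triglyceride, the scavenger receptor Cd36 takes them up, and fatty acid-binding protein 4 (Fabp4) carries them inside the cell. Stored triglyceride sits in droplets coated by perilipins such as Plin2 and is broken down in steps by Pnpla2 (adipose triglyceride lipase) and Lipe (hormone-sensitive lipase). Apoe, the apolipoprotein of lipoprotein remnants, carries cholesterol between cells, and Scarb1 (SR-BI) exchanges cholesterol with high density lipoprotein. Adiponectin (Adipoq) is a hormone that fat cells secrete. Dermal fibroblasts lie beside the adipocytes of the skin and include their precursors.

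Of the 9 genes, Apoe rose in HFD fibroblasts by 1.57-fold, Scarb1 fell slightly, and 7 did not pass the test (limma, adjusted p under 0.05 over all genes). With the excluded ND 4 added, 0 of the 9 passed (limma adjusted p = 0.205 for Apoe and 0.214 for Scarb1), and both calls were lost in 5 of the 7 fits that left out an array. In the background of all genes 5.35% passed, 2.62% as higher and 2.73% as lower in HFD. The median change of the 9 genes was 0.01 log2, against 0.02 for all genes. At an unadjusted p under 0.05 in the same limma fit there were also 2 of 9 members (22.2%), where all genes gave 22.1%. The carriers and enzymes of triglyceride handling, Lpl, Cd36, Fabp4, Plin2, Pnpla2 and Lipe, all gave overlapping values in the diets. Overlap is the usual case, since the diets did not overlap in 17.9% of all genes. Cd36 and Fabp4 were also dim, so that a change in them may not be visible.

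**Figure D1:**
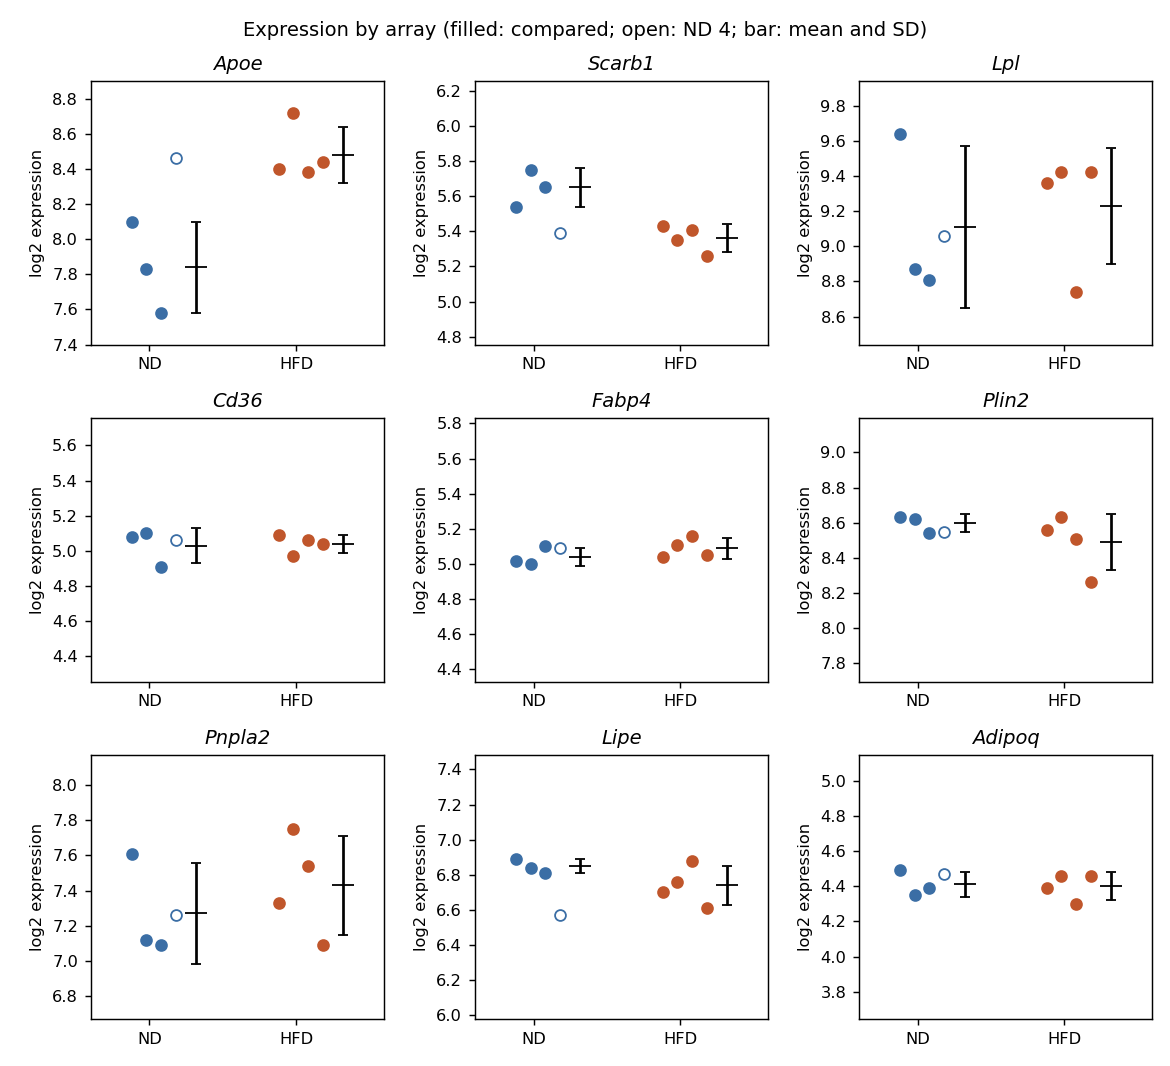
Log2 expression of the 9 measured genes in each array, in panels that each span the same range of log2 units, with ND in blue and HFD in orange. Filled points are the 7 arrays compared, the open point is ND 4, and bars give the mean and SD of the compared arrays. In Apoe the HFD arrays (8.38 to 8.72) lie above ND 1 to 3, in Scarb1 they lie below them (5.26 to 5.43), and in the other panels the diets overlap.

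Promoters of 3 genes are shown because these genes behaved differently. Apoe is the gene that rose, Plin2 is a bright gene that did not pass the test, and Adipoq gave only a dim signal. Each sequence is the 250 bases before the start of a transcript, from RefSeq (GRCm38.p6), read 5′ to 3′ on the gene's strand. Capitals mark 3 motifs on either strand, namely the nuclear receptor half-site AGGTCA, the GC box GGGCGG and the CCAAT box.
Apoe, chr7:19699189-19699438, minus strand: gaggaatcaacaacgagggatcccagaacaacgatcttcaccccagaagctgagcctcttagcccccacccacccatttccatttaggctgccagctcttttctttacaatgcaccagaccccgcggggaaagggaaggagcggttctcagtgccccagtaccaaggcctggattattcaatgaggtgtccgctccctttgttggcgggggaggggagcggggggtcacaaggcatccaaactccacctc
Plin2, chr4:86670060-86670309, minus strand: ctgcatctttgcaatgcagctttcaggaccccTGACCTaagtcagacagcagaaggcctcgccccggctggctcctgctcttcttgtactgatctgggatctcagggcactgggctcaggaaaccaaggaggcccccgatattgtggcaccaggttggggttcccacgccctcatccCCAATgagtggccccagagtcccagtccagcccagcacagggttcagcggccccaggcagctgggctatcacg
Adipoq, chr16:23146286-23146535, plus strand: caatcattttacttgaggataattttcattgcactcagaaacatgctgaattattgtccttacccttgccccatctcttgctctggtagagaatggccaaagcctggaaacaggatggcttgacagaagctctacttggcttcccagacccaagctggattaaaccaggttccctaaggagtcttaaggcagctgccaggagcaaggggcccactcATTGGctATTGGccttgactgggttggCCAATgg

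Promoters were listed for 7 of the 10 genes, in 10 windows. AGGTCA stood in 2 of the 10 windows, those of Plin2 and Cd36, while 14.0% of all 32851 promoter windows hold it. The direct repeat of AGGTCA with any 1 base between, the form read by receptors of the PPAR family, was in 0 of the 10 windows and in 0.0335% of all windows. The GC box was in 3 of the 10 windows, of Cd36, Lipe and Pnpla2 (32.7% of all windows), and CCAAT in 3, of Plin2, Cd36 and Adipoq (33.8%). The Apoe window above holds none of the 3 marked motifs, nor do the windows of its 2 other transcript starts. A match in these letters describes the sequence only, and a window without one says nothing about the factor.

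Apoe stood at 8.10, 7.83 and 7.58 log2 in ND 1, 2 and 3 and at 8.40, 8.72, 8.38 and 8.44 in HFD 1, 2, 3 and 4. Every compared HFD array lay above every compared ND array, with a gap of 0.28 between the groups, as 9.95% of all genes did in that direction. ND arrays averaged 7.84 ± 0.26 (SD, n = 3), and HFD arrays 8.48 ± 0.16 (SD, n = 4). The difference was 0.65 log2 with a standard error of 0.13 (limma adjusted p = 0.0306), and its 95% interval ran from 1.28-fold to 1.93-fold. ND 4, which was not compared, stood at 8.46, inside the HFD range. With ND 4 included the difference was 0.49 (SE 0.17, limma adjusted p = 0.205).

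The sign of the Apoe difference was the same in all 19 other settings tried, but its call was not. It passed without ND 1 (limma adjusted p = 0.0264) and without HFD 1 (0.0339). The limma call was lost without ND 2 (adjusted p = 0.0622), ND 3 (0.119), HFD 2 (0.0634), HFD 3 (0.0703) or HFD 4 (0.0853). A pair of array measures also differed between the diets. The mean of 21 keratinocyte markers was 6.38 to 6.84 log2 in the ND arrays compared and 6.56 to 7.78 in HFD, and HFD 2 was the highest array both in this mean and in Apoe. HFD 1 had a keratinocyte mean of 6.56, below ND 1 and ND 3, and Apoe above every compared ND array. ND 4 stood at 7.13 in this mean. Gapdh and Actb, read by control probe sets at both ends of the transcript as a sign of RNA quality, gave a 3′ minus 5′ signal of −0.34 to −0.18 log2 in the ND arrays compared and −0.44 to −0.38 in HFD. ND 4 stood at −0.37 in this signal. With the keratinocyte mean as a covariate the Apoe difference was 0.48 (SE 0.15, limma adjusted p = 0.171). Taking the 3′ minus 5′ signal as the covariate instead gave 0.30 (SE 0.21, adjusted p = 0.999). The compared diets do not overlap in this signal, so a fit with it can hardly tell it apart from diet. The part of keratinocyte RNA and of RNA quality in the rise of Apoe was not tested beyond these fits.

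Scarb1, the receptor that exchanges cholesterol with high density lipoprotein, stood at 5.54, 5.75 and 5.65 log2 in ND 1 to 3 and at 5.43, 5.35, 5.41 and 5.26 in HFD 1 to 4. All compared HFD arrays were below all compared ND arrays, by a gap of 0.11, as in 7.99% of all genes. ND arrays averaged 5.65 ± 0.11 (SD, n = 3), and HFD arrays 5.36 ± 0.08 (SD, n = 4), so Scarb1 fell by 0.28 on the log2 scale (SE 0.07, limma adjusted p = 0.044), or 1.22-fold. This probe set is dim. The 17 control probe sets for artificial tags, designed to match no mouse gene, had means of 4.01 to 6.09 log2, a range that holds Scarb1. Their own differences between the diets ran from −0.10 to 0.11 log2, and 1 of the 17 was lower and 1 higher in HFD without overlap.

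ND 4 stood at 5.39 in Scarb1, again inside the HFD range. With ND 4 included the difference was −0.22 (SE 0.08, limma adjusted p = 0.214). The call of Scarb1 was lost without ND 2 (limma adjusted p = 0.105), ND 3 (0.157), HFD 2 (0.0924), HFD 3 (0.0874) or HFD 4 (0.12), and kept without ND 1 (0.0394) or HFD 1 (0.0412). With the keratinocyte mean as a covariate the difference was −0.23 (SE 0.09), and with the 3′ minus 5′ difference −0.27 (SE 0.13), neither past the threshold (limma adjusted p = 0.232 and 0.999).

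**Figure D2:**
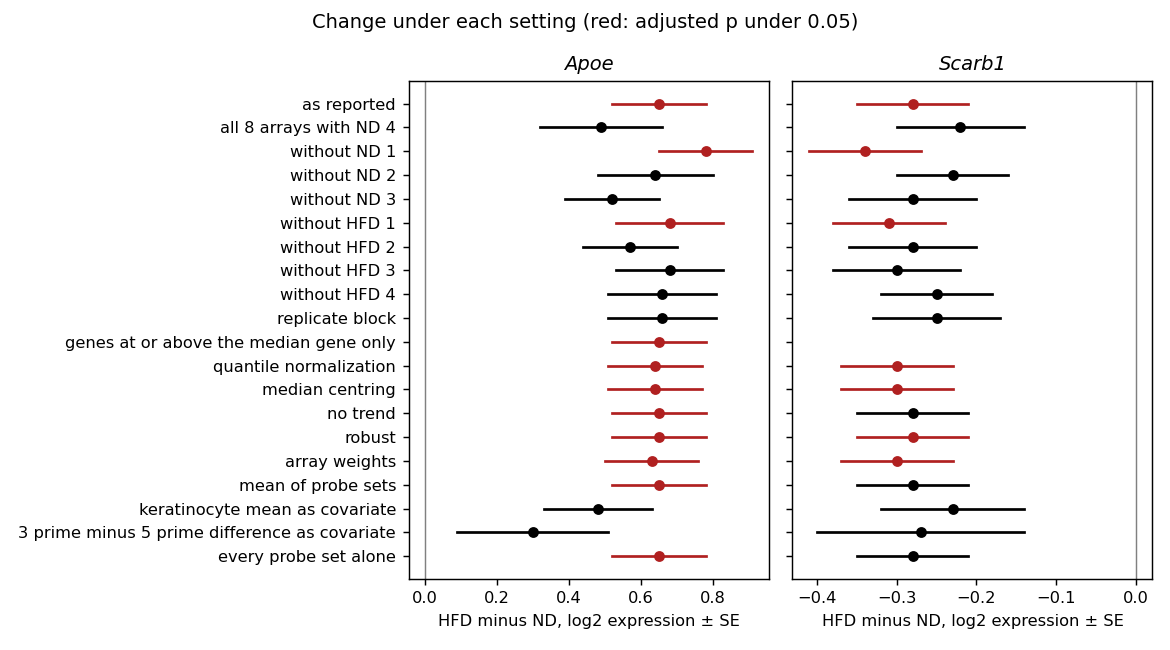
Difference between diets (HFD minus ND, log2 expression) of Apoe and Scarb1 under each setting, with points for the estimate, lines for ± 1 standard error, and red where the adjusted p is under 0.05. Apoe stays between 0.30 and 0.78 and Scarb1 between −0.34 and −0.22, while the call comes and goes. Scarb1 has no point where only genes at or above the median gene were kept.

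Lpl varied widely from specimen to specimen. It stood at 9.64, 8.87 and 8.81 log2 in ND 1 to 3 and at 9.36, 9.42, 8.74 and 9.42 in HFD 1 to 4. The highest and the lowest arrays were thus ND 1 and HFD 3, and the diets overlapped. The difference was 0.13 (SE 0.22, limma adjusted p = 0.799), with a 95% interval of −0.36 to 0.62. The residual SD of Lpl within diets was 0.39 log2, at percentile 98.9 of all genes. Without ND 1 the difference was 0.39 (SE 0.19), and without ND 3 it was −0.02 (SE 0.24). Its other probe set had the same extremes, from 6.60 in HFD 3 to 7.61 in ND 1, and differed by −0.09 (SE 0.22). ND 4 stood at 9.06 and 7.34 in the brighter and the dimmer probe set. Partners of Lpl, picked with their values in view, were its inhibitor Angptl4 (0.36, SE 0.41, residual SD at percentile 99.9) and its capillary anchor Gpihbp1, whose means were 6.00 (ND) and 5.92 (HFD), in the tag control range.

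Cd36 and Fabp4 gave flat and dim signals. Cd36 stood at 5.08, 5.10 and 4.91 log2 in ND 1 to 3 and at 5.09, 4.97, 5.06 and 5.04 in HFD 1 to 4, a difference of 0.01 (SE 0.06) with a 95% interval of −0.12 to 0.14. Its other probe sets, at 4.67 and 4.11 in their means, differed by 0.06 and −0.01. All 3 lay inside the range of the tag controls. Fabp4 stood at 5.02, 5.0 and 5.10 in ND and at 5.04, 5.11, 5.16 and 5.05 in HFD, a difference of 0.05 (SE 0.05, limma adjusted p = 0.638). Its other probe sets had means of 4.64 and 4.35 and differed by 0.06 and 0.08. With signals in the control range, a change in the transcript itself may not be visible in Cd36 or Fabp4.

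The droplet coat gene Plin2 was bright. It stood at 8.63, 8.62 and 8.54 log2 in ND 1 to 3 and at 8.56, 8.63, 8.51 and 8.26 in HFD 1 to 4. HFD 4 was the low array, and the others of both diets lay within 8.51 to 8.63. The difference was −0.11 (SE 0.10, limma adjusted p = 0.61), and the 95% interval of −0.33 to 0.12 covers 0.793-fold to 1.09-fold. Without HFD 4 it was −0.03 (SE 0.09). ND 4, at 8.55, lay with the other arrays.

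The lipase genes did not pass the test either. Pnpla2, which starts triglyceride breakdown, stood at 7.61, 7.12 and 7.09 log2 in ND 1 to 3 and at 7.33, 7.75, 7.54 and 7.09 in HFD 1 to 4. Its lowest value occurred in both diets. The difference was 0.15 (SE 0.17, limma adjusted p = 0.661), with a 95% interval of −0.22 to 0.53 and a residual SD of 0.29 at percentile 96.6 of all genes. Leaving out 1 array moved it from 0.05 (without HFD 2) to 0.32 (without ND 1). The sign of Pnpla2 turned to −0.10 (SE 0.17) with the keratinocyte mean as a covariate. Lipe, which acts on diglyceride and cholesterol ester, stood at 6.89, 6.84 and 6.81 in ND 1 to 3 and at 6.70, 6.76, 6.88 and 6.61 in HFD 1 to 4. Of the HFD arrays 3 lay below every compared ND array, and HFD 3 did not. The difference was −0.11 (SE 0.08, limma adjusted p = 0.503), and the dimmer probe set of Lipe, at 4.60, differed by 0.06 (SE 0.06). ND 4 had the lowest Lipe value of all, 6.57.

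Adipoq stood at 4.49, 4.35 and 4.39 log2 in ND 1 to 3 and at 4.39, 4.46, 4.30 and 4.46 in HFD 1 to 4. All these values are within the range of the tag controls, and the diets overlap. The difference was −0.01 (SE 0.05, limma adjusted p = 0.957), with a 95% interval of −0.12 to 0.11. The members with means in the tag control range were thus Adipoq, Cd36, Fabp4 and Scarb1, 4 of 9, and the 5 others lay above the median gene of 6.77.

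**Figure D3:**
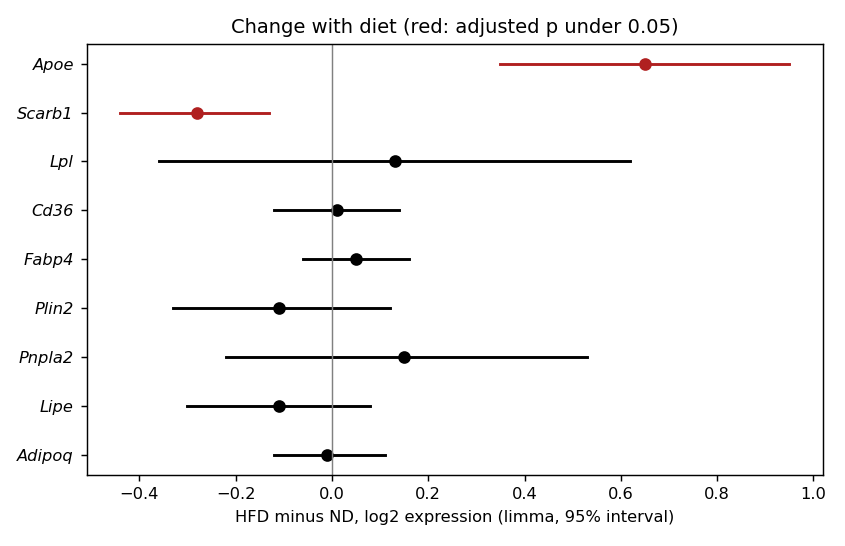
Difference between diets (HFD minus ND, log2 expression) of the 9 measured genes, with points for the limma estimate and lines for the 95% interval, red where the adjusted p is under 0.05. The intervals of Apoe (0.35 to 0.95) and Scarb1 (−0.44 to −0.13) leave out 0, the 7 others include it, and that of Lpl is the widest.

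The cells were checked against markers of fibroblasts and of fat cells. Cd34 had means of 12.08 and 12.10 log2 in ND and HFD and the collagen gene Col1a1 13.20 and 13.23, while the probe set for Pdgfra was dim (5.92 and 6.27). Pdgfra differed by 0.34 (SE 0.11, limma adjusted p = 0.103). Its compared HFD arrays all lay above the compared ND arrays, by a gap of 0.01, as in 9.95% of all genes. A list of 12 further markers of mature adipocytes had mean levels of 5.91 to 5.98 in ND and 5.88 to 5.95 in HFD, with 7 of 12 markers in the tag control range, 3 of 12 above the median gene, 5 of 12 higher in HFD by sign and 0 past the threshold. Of all 17097 genes, 9615 were higher in HFD by sign. In limma 0 of those 12 also had an unadjusted p under 0.05, and the smallest was that of the droplet gene Plin4 (−0.15, adjusted p = 0.35), then Trarg1, a regulator of glucose transporter traffic (−0.14, adjusted p = 0.529). These lay well above the tag controls, Plin4 at 7.90 and 7.75 and Trarg1 at 8.42 and 8.28 in ND and HFD, while the fat cell hormone Lep lay within them at 4.75 and 4.72. Among 13 genes of adipocyte precursors 0 passed, with 2 at an unadjusted p under 0.05. The adipogenic factor Cebpa differed by 0.62 (SE 0.17, limma adjusted p = 0.0654) and Klf4 by −0.19 (SE 0.06, adjusted p = 0.077), while the difference of Pparg, a gene picked with its values in view, was −0.002 (SE 0.09).

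Other cells of skin express several of the 9 genes, so their markers were read in the same arrays. Macrophages make Apoe. Their 13 markers had mean levels of 5.84 to 5.88 log2 in ND and 5.82 to 5.92 in HFD, with 8 of 13 in the tag control range, Ptprc (CD45) at 4.08 and 4.03, and 5 of 13 higher in HFD by sign. Cd68 stood above that range, at 8.98 in ND and 8.96 in HFD. The adaptor Tyrobp rose by 0.32 (SE 0.07, limma adjusted p = 0.0352) from a dim 5.60, and kept its call in 2 of 7 fits that left out an array (the calls were kept without HFD 1 or HFD 2). Capillary endothelium handles fatty acids through Cd36, Fabp4 and Lpl. Its 12 markers had means of 5.95 to 6.06 in ND and 5.96 to 6.10 in HFD, with 0 past the threshold and also 0 at an unadjusted p under 0.05 in limma, the smallest being Eng (−0.23, adjusted p = 0.227) and Cdh5 (0.10, adjusted p = 0.338). Pecam1 (CD31), used to deplete endothelium in the sort, stood at 6.81 in ND and 7.0 in HFD, above the tag controls. The part of macrophage and endothelial RNA in the values of the 9 genes was not tested.

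Markers of sebaceous gland, epidermis, mural cells, Schwann cells and fibroblasts were read too. The 5 measured sebocyte markers had means of 5.56 to 5.58 log2 in ND and 5.71 to 6.23 in HFD, which do not overlap (ND 4, not compared, stood at 5.72, and 4 of the 5 markers were in the tag control range). Of all genes taken singly, 17.9% did not overlap in either direction. HFD 2 was the highest array both in this mean (6.23) and in the keratinocyte mean (7.78), and the part of keratinocyte RNA in it was not tested. By sign 3 of the 5 sebocyte markers were higher in HFD and 2 lower. Far2, an enzyme of wax synthesis, rose by 0.39 (SE 0.08, limma adjusted p = 0.03, and 0.0361 to 0.129 when an array was left out, past the threshold without ND 1 or HFD 1). The mean of the probe sets of Far2 gave 0.21 (limma adjusted p = 0.0841), and the 3′ minus 5′ covariate 0.25 (adjusted p = 0.999). All 21 keratinocyte markers were higher in HFD by sign, with a median of 0.35 log2 and 0 past the threshold (6, or 28.6%, at an unadjusted p under 0.05 in limma, against 22.1% of all genes). By sign 9615 of all 17097 genes were higher in HFD. The 21 signs come from the same arrays, so they are not 21 separate observations. The barrier genes Perp (1.55, SE 0.57, adjusted p = 0.143) and Sbsn (0.83, SE 0.31, adjusted p = 0.154) had the smallest p. Of 5 mural cell genes 0 passed (1 at an unadjusted p under 0.05 in limma), with Des at 0.49 (adjusted p = 0.168) and Notch3 at 0.10 (adjusted p = 0.314). Among 4 Schwann cell genes Pmp22, which fibroblasts also express, fell by 0.36 on the log2 scale (limma adjusted p = 0.0224), and among 13 fibroblast genes S100a4 rose by 0.49 (adjusted p = 0.0224) and Lum fell by 0.33 (adjusted p = 0.0358). When an array was left out they kept the call in 4 of 7, 4 of 7 and 1 of 7 fits respectively. Tyrobp, Far2, Pmp22, S100a4 and Lum all lost it with ND 4 included (limma adjusted p = 0.15, 0.15, 0.159, 0.128 and 0.15), and with either covariate.

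**Figure D4:**
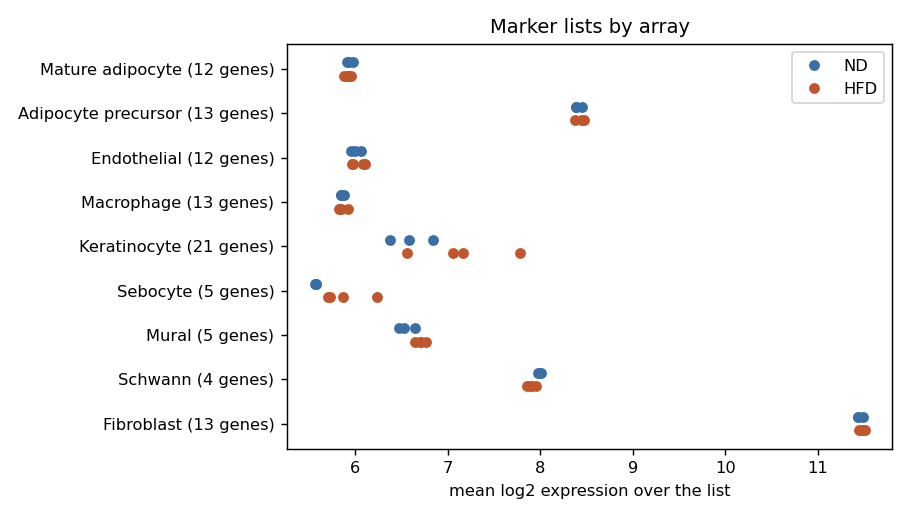
Mean log2 expression over each marker list, with 1 point for each array compared, ND in blue and HFD in orange. The keratinocyte list spreads from 6.38 to 7.78 and the diets do not overlap in the sebocyte list (higher in HFD) or the Schwann list (lower in HFD, 7.86 to 7.95 against 7.98 to 8.01), while the mature adipocyte, endothelial and macrophage lists lie between 5.82 and 6.10 in every array.

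Around the 9 genes, 5 lists of related genes held 97 measured genes, of which 2 rose and 1 fell, where 5.35% of all genes passed. Leaving out an array moved this count from 0 to 5, so it is too small and unsettled to set the lists apart from all genes. The median change of the 97 genes was 0.04 log2, against 0.02 for all genes. The 3 that passed were Cd9, Npc1 and Ccn5. Each lost its call with ND 4 included and without ND 2, ND 3, HFD 1, HFD 2, HFD 3 or HFD 4, while without ND 1 Cd9 and Npc1 passed and Ccn5 did not (limma adjusted p = 0.0517 at the lowest when an array was left out).

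In cholesterol efflux and lipoproteins, the list nearest to Apoe and Scarb1, 1 of 20 genes rose, 1 fell and 18 did not pass, with a median of 0.07 log2 (2.62% of all genes rose and 2.73% fell). At an unadjusted p under 0.05 in limma there were 6 of the 20 (30.0%), where all genes gave 22.1%. The diets did not overlap in 5 of the 20, against 17.9% of all genes. Cd9, a tetraspanin of the cell surface, rose from 11.14 ± 0.23 (SD, n = 3) to 11.56 ± 0.10 (SD, n = 4), by 0.42 log2 (SE 0.10, limma adjusted p = 0.0457). Under the covariate of RNA quality, 3′ minus 5′, in which the compared diets do not overlap, its difference was 0.08 (SE 0.14, limma adjusted p = 0.999). Npc1, which exports cholesterol from lysosomes, fell by 0.36 on the log2 scale (SE 0.09, limma adjusted p = 0.0499), from 9.45, 9.57 and 9.76 in ND 1 to 3 to 9.25 or less in HFD, and with that covariate the difference was −0.17 (SE 0.15, adjusted p = 0.999). The plasma enzyme Lcat, which esterifies cholesterol, differed by −0.35 (SE 0.09, limma adjusted p = 0.0584). Apoc1 and Apoc2, which lie in the same gene cluster as Apoe, differed by 0.20 (SE 0.13) and 0.08 (SE 0.09), with limma adjusted p of 0.417 and 0.676. Apod, another apolipoprotein, was bright and differed by 0.12 (SE 0.11). Lcat, Apoc1, Apoc2 and Apod were chosen after their values were seen.

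In fatty acid and lipoprotein uptake 0 of 23 genes passed, with 4 (17.4%) at an unadjusted p under 0.05 in limma, where all genes gave 22.1%, and a median of 0.05 log2. The smallest p were those of Lmf1, which matures Lpl (−0.30, SE 0.11, limma adjusted p = 0.129), and caveolin Cav1 (−0.47, SE 0.17, adjusted p = 0.131). In triglyceride synthesis and lipid droplets 0 of 24 passed, again with 4 (16.7%) at an unadjusted p under 0.05 in limma. The droplet protein Plin5 differed by 0.30 (SE 0.08, limma adjusted p = 0.0533) and the acyltransferase Agpat1 by −0.31 (SE 0.10, adjusted p = 0.0993).

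In lipolysis and its control 0 of 12 passed, with 1 at an unadjusted p under 0.05 in limma. This was the lysosomal acid lipase Lipa, at 9.66, 9.50 and 9.20 log2 in ND 1 to 3 and 9.82, 9.93, 9.87 and 9.86 in HFD 1 to 4, which ran the same way as Apoe without overlap but missed the threshold (0.42, SE 0.11, limma adjusted p = 0.0533). Abhd5, the activator of Pnpla2, differed by −0.003 (SE 0.09) and its inhibitor G0s2 by 0.10 (SE 0.16), both looked up after their values were seen. Prkar2b, a subunit of the kinase that drives lipolysis, differed by −0.15 (SE 0.10, limma adjusted p = 0.41). Among 18 adipokines and their receptors Ccn5 (Wisp2), a secreted protein made by adipocyte precursors, rose by 0.73 (SE 0.16, limma adjusted p = 0.0374) and 17 did not pass. An unadjusted p under 0.05 in limma was found for 3 of the 18 (16.7%). The adiponectin receptors, chosen after their values were seen, differed by −0.24 (Adipor1, SE 0.09, limma adjusted p = 0.154) and 0.06 (Adipor2, SE 0.10, adjusted p = 0.789).

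**Figure D5:**
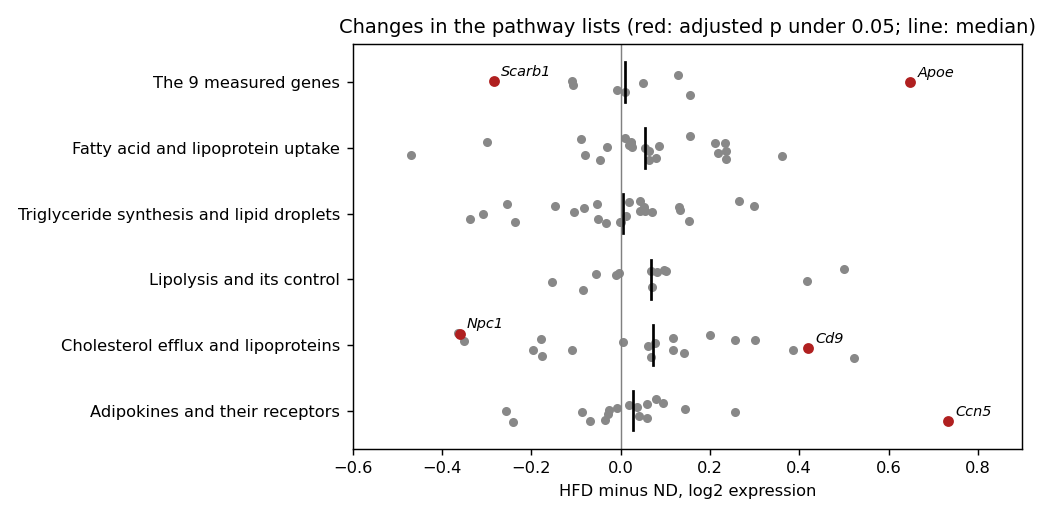
Difference between diets (HFD minus ND, log2 expression) of each gene in the 9 measured genes and in 5 lists of related genes, with 1 point a gene (vertical scatter is only for legibility), black lines for the list medians, and red for an adjusted p under 0.05. Medians lie between 0.01 and 0.07, and 5 genes are red, namely Apoe, Scarb1, Cd9, Npc1 and Ccn5.

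The genes whose pattern over the 7 arrays was most like that of Apoe, by the root mean square difference of centred log2 values, were Micu2 (0.0697), Itgb3 (0.0727) and Cetn2 (0.0731), out of 3725 genes whose SD was at least 0.5 times its own. Micu2 regulates calcium entry into mitochondria, Itgb3 is an integrin chain and Cetn2 a protein of centrioles. For Scarb1 they were Mknk2 (0.0381), Plod3 (0.0403) and Arrdc1 (0.0414), of 11888. These resemblances are descriptions over 7 values each. For Adipoq, whose values spanned 0.19 log2, they were Gm17619 (0.0249), Map7 (0.0251) and Npy5r (0.0259).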

How the data were processed

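Expression was deposited as log2 values (3.56 to 13.5) for 45141 probe sets on 8 arrays. The tools the authors named are RMA and affy, per the submitters' processing notes, and their versions are not given in the sources used here. They were used without further scaling. RMA as usually run sets arrays to 1 common distribution, so a change in total RNA would not show, and no detection calls were used here.

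The annotation of the platform gave the gene names (28898 with 1 gene symbol, 551 with several, 15588 others unnamed besides 104 controls), and symbols were updated by Entrez identifier for 28689 through a table of GRCm38.p6. HFD 1 to 4 were compared with ND 1 to 3 in limma 3.58.1 under R 4.3.3 (lmFit, eBayes with trend, 10.3 degrees of freedom), Benjamini-Hochberg over 17097 genes at 0.05. The number of arrays limits the precision. The p-values set the difference between the diets against the spread between these arrays, moderated over all genes.

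The 10 genes, 5 pathway lists and 9 marker lists were chosen with earlier results of these data known. From each list, genes past the threshold were named, or else the 2 with the smallest p. For Apoe, Scarb1 and Adipoq the 3 genes of most similar pattern were named, among genes with at least 0.5 times the SD of that gene. Others are marked as chosen after their values were seen. Cd34, Col1a1, Pdgfra, Lep, Ptprc, Cd68 and Pecam1 were also picked from the marker lists with their values in view. On simulated data for this comparison, with 200 of 17097 genes changed, the fit recovered 93.9% of changes of 1 log2 and 63.8% of changes of 0.5, with 4.97% false calls. The simulated noise was independent from gene to gene, without the deviations that genes of 1 array may share. These shares may therefore not hold for the real arrays. Other settings were all 8 arrays, each array left out, the specimen number as a block, dim genes left out, median centring, quantile normalization, robust eBayes, eBayes with no trend, weights for arrays, a gene's probe sets averaged or each taken alone, an adjusted p under 0.1, and the keratinocyte mean or 3′ minus 5′ difference as a covariate.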

Additional observations from a re-analysis of the deposited data

Results flagged for a closer look

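Among the 4 HFD arrays, 1 array stood far from the others in 5 of 39 probe sets, by its gap divided by the range of the 4. These were every probe set of the 9 measured genes and the main probe set of each gene named from the lists by threshold or smallest p. Genes chosen after their values were seen were not tested. Chance alone would flag about 1 in 20, a share that is approximate because the ratios were taken on rounded log2 values. In Lpl, HFD 3 stood at 8.74 log2 against 9.36 to 9.42 in the others (0.912). In the dimmest Fabp4 probe set, HFD 4 stood at 4.72 against 4.23 to 4.30 (0.857). In Npc1, HFD 4 stood at 9.18 against 9.25 in each of the others (1.0), a gap of little size. In Klf4, HFD 2 stood at 12.22 against 12.32 to 12.33 (0.909). In the keratinocyte gene Sbsn, HFD 2 stood at 9.97 against 8.48 to 8.57 (0.94).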

How the results depend on the processing

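Apoe and Scarb1 kept their direction in every setting run (19 and 18), past the threshold in 10 and 6 of these. With ND 4 included Apoe differed by 0.49 and Scarb1 by −0.22, and the counts past the threshold were 6 genes, 0 members and 0 pathway genes, against 914, 2 and 3. Leaving out each array gave 0.52 to 0.78 for Apoe, −0.34 to −0.23 for Scarb1, 6 to 1072 genes, 0 to 2 members and 0 to 5 pathway genes, with 815, 485 and 11 genes without ND 1, ND 2 and ND 3 and 1072, 210, 6 and 9 without HFD 1, 2, 3 and 4.

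The specimen number as a replicate block gave 0.66 for Apoe (limma adjusted p = 0.173), −0.25 for Scarb1 (adjusted p = 0.234), and 1 gene, 0 members and 0 pathway genes. Arrays of the same number did not deviate together (r = −0.182, −0.291 and −0.053 over genes). With so few pairs, and deviations taken from each diet's own mean, these values cannot decide whether the number is a pairing. The keratinocyte covariate gave 0.48, −0.23, and 14 genes, 0 members and 0 pathway genes. The 3′ minus 5′ covariate, in which the compared diets do not overlap, gave 0.30, −0.27, and counts of 0, 0 and 0.

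Genes at or above the median gene gave 1387 genes, 1 member (Scarb1 was left out with 3 others) and 5 pathway genes. The mean of probe sets gave 400 genes, 1 member, 0 pathway genes and −0.28 for Scarb1 (adjusted p = 0.0549), every probe set alone 1374 probe sets and 1 member (Scarb1 −0.28, adjusted p = 0.0508), and eBayes without trend 1 member (Scarb1 −0.28, adjusted p = 0.0565).

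Differences near 0 changed sign. Leaving out each array gave −0.04 to 0.03 for Adipoq (0.03 without ND 1 or HFD 3), −0.02 to 0.39 for Lpl (−0.02 without ND 3) and −0.05 to 0.04 for Cd36. Lpl became −0.001 with the keratinocyte covariate and −0.32 with the 3′ minus 5′ covariate. Cd36 became −0.05 without ND 3, −0.01 without HFD 1, −0.001 after quantile normalization, −0.002 after median centring, −0.01 with array weights and −0.11 with the 3′ minus 5′ covariate. Pnpla2 became −0.10 with the keratinocyte covariate. The cause was not tested, and dim signals limit what could be seen of Adipoq, Cd36 and Fabp4.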
